A study of Mus musculus with 6 samples.

Results

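Histone deacetylases (HDACs), sirtuins, histone acetyltransferases, histone methyltransferases and histone demethylases were examined in the prefrontal cortex (PFC) of mice after early life stress (ELS). The genes were chosen by symbol, as the Hdac, Sirt, Kdm, Kmt2, Kmt5 and Setd families together with 18 named enzymes such as Ezh2, Ehmt2, Crebbp and Ep300. This gave 70 of the 22000 gene symbols counted, and 69 of them reached 1 CPM (read counts scaled to the size of the library) in all mice of the control or the ELS group. RNA-seq was carried out on 3 control and 3 ELS mice, all male C57BL/6N wild type, at 9 weeks of age, with 1 library per mouse. ELS mice were housed singly with a filter cap from weaning at postnatal day 21 to day 50, and control mice were housed 4 to a cage without the cap. Behavioural tests followed in both groups, each mouse kept its housing until dissection at day 67, and both groups were drawn from litters of the same mothers. Bulk tissue was sequenced, so a lower value can mean fewer cells that express a gene or less RNA per cell, and these cannot be told apart.

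Most of these enzymes write or erase marks on histones, many of them on the tails. Acetyltransferases add acetyl groups, which loosen chromatin and recruit bromodomain proteins at active enhancers and promoters, and HDACs and the NAD-dependent sirtuins remove them. Methyltransferases of the Kmt2 and Setd1 families methylate H3K4 at promoters and enhancers, Ezh1 and Ezh2 place the repressive H3K27 mark as the catalytic subunits of Polycomb complex PRC2, and Ehmt1, Ehmt2, Suv39h1, Suv39h2 and Setdb1 place the repressive H3K9 mark. Kdm enzymes take methyl groups off. In neurons the class IIa HDACs shuttle between cytoplasm and nucleus with synaptic activity, and many members of these families are needed for memory and for brain development.

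Libraries held 28405795 to 35241743 counts, and every ELS library was the deeper when set against any control. Neuronal markers were high in all 6 mice, as given with the other marker lists further on. Control mouse 3 and ELS mouse 1 stood apart from the rest of their groups, with the highest sums of striatal and oligodendrocyte markers, and the values that move most with them are also given without them.

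None of the 69 genes was called between ELS and control mice by edgeR's quasi-likelihood fit, where a call took an adjusted p below 0.05 with a log2 fold change beyond 0.3 in size and 0.0152% of the 13185 genes tested were called. At an unadjusted p under 0.05 there were 5 members, Kmt2a, Dot1l and Kdm3a with lower and Kdm6a and Hdac9 with higher values in ELS mice. That is 7.25% of the members, against 4.23% of all genes. By direction, 4.35% of the members were at this p with lower values, against 2.34% of all genes, and 2.90% with higher values, against 1.89%. DESeq2 also called 0 members, where it called 18 of the 13185 genes, and had 6 members at an unadjusted p under 0.05, or 8.7%, against 3.72% of all genes. The median log2 fold change was -0.030 over the members and -0.0046 over all genes tested, and 46 of the 69 members, or 66.7%, had a value below 0, against 52.5% of all genes. The members lay between -0.32 and 0.21 on this scale.

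**Figure D1:**
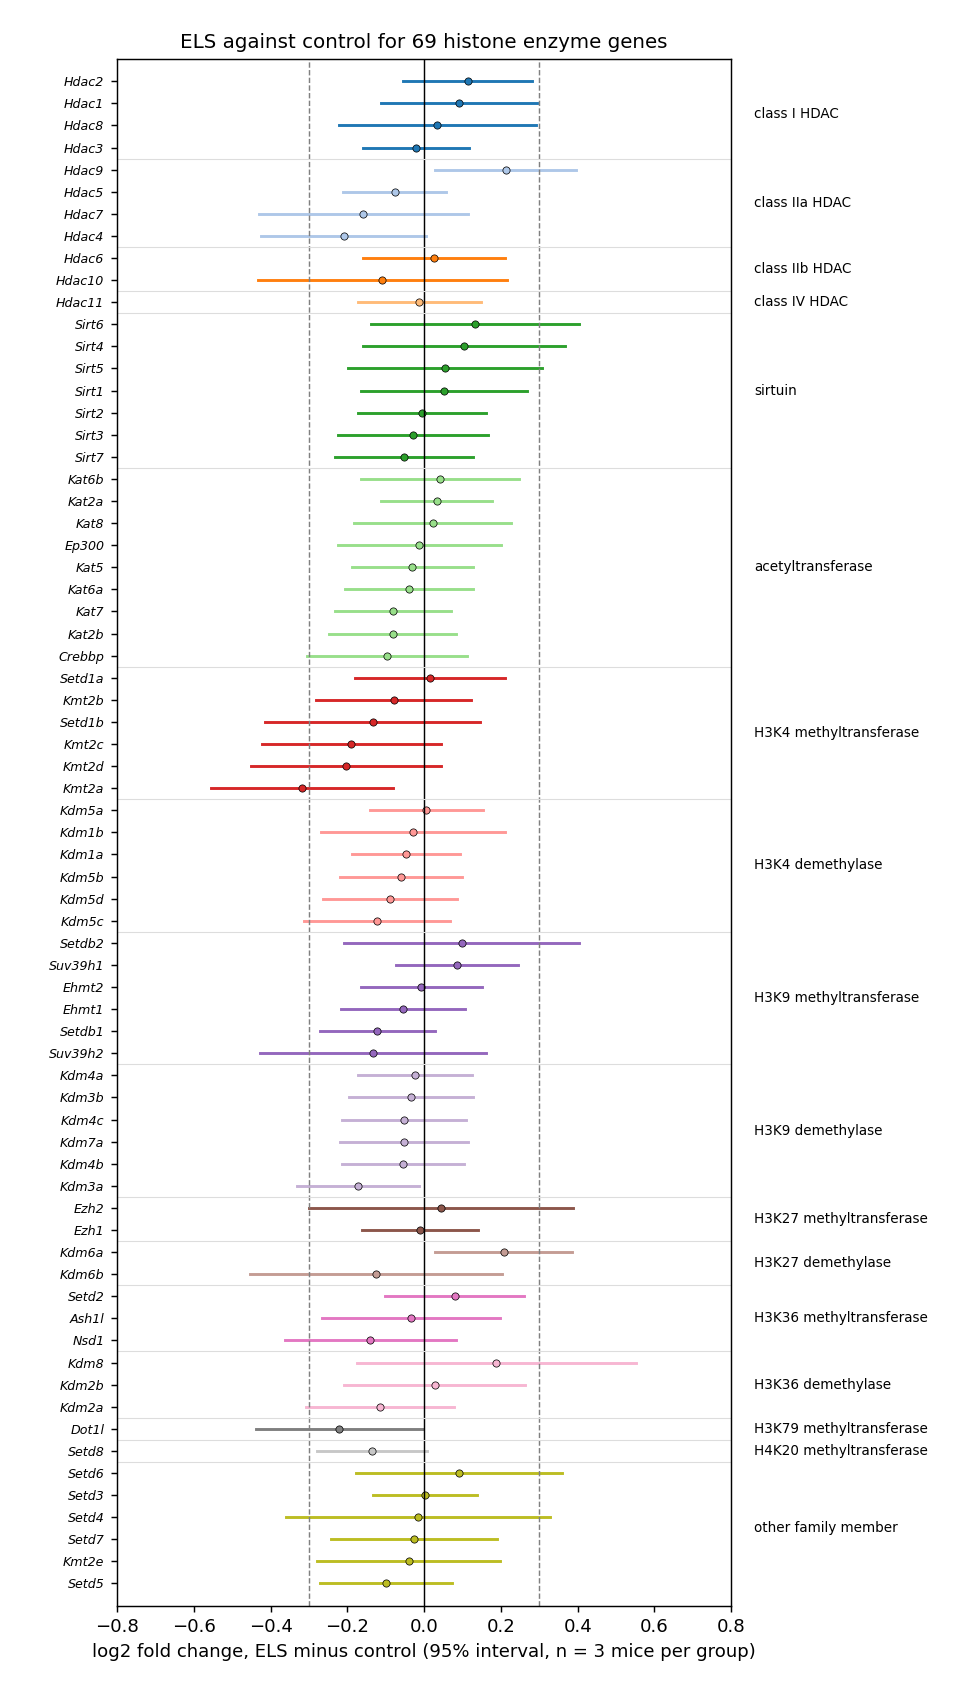
Log2 fold change (ELS minus control, horizontal axis) of each of the 69 genes, grouped by enzyme class, where the point is the estimate and the bar its 95% interval from edgeR's quasi-likelihood fit (n = 3 mice per group); dashed lines stand at -0.3 and 0.3. Kmt2a at -0.32 and Hdac9 at 0.21 are the ends of the range, and the interval lies inside the dashed lines for 44 genes.

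The precision of the comparison set an upper limit on changes that could have been missed. The 95% interval of a member's log2 fold change reached to either side by a median of 0.193, close to 0.195 over all genes, and ran from 0.134 to 0.363. For 44 of the 69 members the whole interval lay between -0.3 and 0.3, a 1.23-fold change, and for 67 it lay between -0.5 and 0.5, a 1.41-fold change. Over all genes tested, 61.4% and 85.6% had intervals inside these bounds. Kmt2a and Kdm8 were the 2 members with intervals that reached past 0.5 in size, and all 69 intervals lay within a 2-fold change.

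Promoter sequences of the 3 members with the smallest p, Kmt2a, Kdm6a and Hdac9, are shown because they stand at the ends of the range of fold changes and differ in base composition. Each run holds the 250 bases before a RefSeq transcript start on GRCm38.p6, 5′ to 3′ on the strand of the gene, with CpG dinucleotides in capitals.
Kmt2a, chr9:44881290-44881539, minus strand: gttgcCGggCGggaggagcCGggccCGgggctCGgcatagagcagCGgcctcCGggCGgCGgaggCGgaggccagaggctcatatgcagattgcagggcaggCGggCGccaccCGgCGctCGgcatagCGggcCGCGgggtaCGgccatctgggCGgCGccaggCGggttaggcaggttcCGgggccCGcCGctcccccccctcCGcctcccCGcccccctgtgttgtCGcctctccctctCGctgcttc
Kdm6a, chrX:18162325-18162574, plus strand: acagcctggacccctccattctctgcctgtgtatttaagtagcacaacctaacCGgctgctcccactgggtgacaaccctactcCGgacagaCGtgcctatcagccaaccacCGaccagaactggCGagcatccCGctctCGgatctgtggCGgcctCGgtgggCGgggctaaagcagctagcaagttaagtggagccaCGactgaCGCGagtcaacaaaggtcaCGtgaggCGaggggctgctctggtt
Hdac9, upstream start, chr12:34917096-34917345, minus strand: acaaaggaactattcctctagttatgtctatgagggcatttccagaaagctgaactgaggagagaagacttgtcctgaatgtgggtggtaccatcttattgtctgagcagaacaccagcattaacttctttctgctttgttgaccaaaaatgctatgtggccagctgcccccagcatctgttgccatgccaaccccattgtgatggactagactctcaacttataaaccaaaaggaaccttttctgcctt
Hdac9, downstream start, chr12:34528890-34529139, minus strand: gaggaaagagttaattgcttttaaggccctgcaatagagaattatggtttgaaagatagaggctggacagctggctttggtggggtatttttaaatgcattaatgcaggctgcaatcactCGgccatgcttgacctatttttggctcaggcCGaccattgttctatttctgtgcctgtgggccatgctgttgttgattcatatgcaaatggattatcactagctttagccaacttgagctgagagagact
The Kmt2a run holds 29 CpG dinucleotides and the Kdm6a run 15, while the Hdac9 runs hold 0 and 2.

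RefSeq promoter windows, from 250 bases before to 50 bases after a start, were found for 55 of the 69 members, 76 windows in all. A window was taken as CpG-rich with a GC content above 50% and an observed to expected CpG ratio above 0.6. Of the member windows 58, or 76.3%, were CpG-rich, against 64.5% of the 12872 windows of all genes tested. Hdac9, Hdac7, Hdac8, Kdm3a and Kdm4c were among the members with a window that was not. Letters were searched on both strands, without mismatches. The GC box GGGCGG stood in 63.2% of member windows and 62.3% of all, and the E-box CACGTG in 9.21% and 9.57%, so that these shares lay close to the background. The cyclic AMP response element TGACGTCA was in 1 member window, that of Suv39h2, or 1.32%, against 3.01% of all, and the TATA box letters TATAAA were in 3.95% of member windows and 7.09% of all. The palindromic glucocorticoid response element was in 0 member windows and in 1 window of all genes tested.

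The acetyl erasers were measured at levels that spanned more than an order of magnitude. Levels are compared between genes as CPM per kb of merged exon, TMM-scaled, over the 6 mice. Hdac11, the only class IV HDAC and known from oligodendrocytes and neurons, was the highest of the 69 at 50.6 ± 2.95 CPM per kb (SD, n = 6), above 92.6% of all genes with a length. Of class I, Hdac1, Hdac2 and Hdac3 are the catalytic subunits of nuclear corepressor complexes. Hdac3 had 19.8 ± 0.514 and Hdac2 17.7 ± 1.36 CPM per kb (SD, n = 6 each), with overlapping ranges. Hdac1, the paralog of Hdac2 that shares its complexes, had 6.27 ± 0.506 CPM per kb, and Hdac8, the class I enzyme that deacetylates cohesin, had 2.04 ± 0.177 CPM per kb (SD, n = 6 each). The ranges of Hdac1 and Hdac2 did not overlap. Class IIa was led by Hdac5 at 20.5 ± 0.702 CPM per kb, and its paralog Hdac4 was at 4.23 ± 0.531 CPM per kb (SD, n = 6 each). Hdac6, the cytoplasmic tubulin deacetylase of class IIb, was at 7.19 ± 0.534 and Hdac10 at 3.18 ± 0.50 CPM per kb (SD, n = 6 each). Among the sirtuins Sirt2, a cytoplasmic deacetylase abundant in myelin, was highest at 25.2 ± 1.61 CPM per kb, mitochondrial Sirt3 followed at 11.4 ± 1.03, and mitochondrial Sirt5 was lowest at 1.61 ± 0.137 CPM per kb (SD, n = 6 each).

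The writers and methyl erasers ran from 0.747 to 32.3 CPM per kb, and single paralogs held most of the level of several pairs. Ehmt2, the H3K9 methyltransferase also known as G9a, had 32.3 ± 1.75 CPM per kb, while its partner Ehmt1 had 3.80 ± 0.159 CPM per kb (SD, n = 6 each). Ezh1, the PRC2 subunit of non-dividing cells, had 7.84 ± 0.333 CPM per kb, and Ezh2, the subunit of dividing cells, was the lowest of the 69 at 0.747 ± 0.0847 CPM per kb (SD, n = 6 each). In the acetyltransferases Kat5 and Kat2a led at 18.0 ± 0.966 and 17.5 ± 0.642 CPM per kb, and Kat6b was lowest at 3.32 ± 0.323 CPM per kb (SD, n = 6 each). Kat2b, the paralog of Kat2a, had 5.90 ± 0.293 CPM per kb, and Kat6a, that of Kat6b, had 6.82 ± 0.430 CPM per kb (SD, n = 6 each). The coactivator paralogs Crebbp and Ep300 lay together at 5.0 ± 0.524 and 4.36 ± 0.440 CPM per kb (SD, n = 6 each), with overlapping ranges. Among Kmt2a to Kmt2d, Setd1a and Setd1b, the enzymes grouped here as H3K4 methyltransferases, Kmt2a was the highest at 7.39 ± 1.26 CPM per kb and Setd1a the lowest at 2.58 ± 0.144 CPM per kb (SD, n = 6 each). Of the H3K4 demethylases Kdm1a led at 13.7 ± 0.476 CPM per kb. X-linked Kdm5c had 7.06 ± 0.685 CPM per kb and its Y-linked paralog Kdm5d 1.66 ± 0.0970 CPM per kb, the lowest of this class (SD, n = 6 each). Setd3, an actin histidine methyltransferase, and Setd7, a lysine methyltransferase of histone and other proteins, were at 29.8 ± 0.647 and 22.8 ± 2.41 CPM per kb (SD, n = 6 each). Among the H3K9 enzymes Setdb2 was the lowest writer at 1.21 ± 0.0749 CPM per kb, and the demethylases ran from 3.75 ± 0.205 for Kdm3b to 11.5 ± 0.634 CPM per kb for Kdm4b (SD, n = 6 each). For H3K36, the methyltransferases ran from 5.78 ± 0.459 for Setd2 to 10.6 ± 1.25 CPM per kb for Ash1l (SD, n = 6 each). The genes grouped here as H3K36 demethylases ran from 1.28 ± 0.108 for Kdm8 to 5.27 ± 0.514 CPM per kb for Kdm2a (SD, n = 6 each).

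In the order of levels, 63 of the 68 neighbouring pairs had overlapping ranges over the 6 mice. The gaps stood below Hdac11, Setd3, Kat2a, Kdm1a and Setdb2, and elsewhere each gene overlapped its neighbour in the order, though genes farther apart in it could be separated. The median of the members was 5.42 CPM per kb, near the 6.41 CPM per kb of all genes with a length. Kdm4d was the only gene of the families outside the limit of 1 CPM, with 22 to 32 counts in the controls and 28 to 43 in the ELS mice, or 0.778 to 1.33 CPM. Kdm8 was the gene nearest to the limit inside it, with 2.79 to 3.48 CPM. The length is the union of all annotated exons of a gene, so levels and ranks depend on the annotation. It is 15.2 kb for Kdm5d against 7.11 kb for Kdm5c, and 16.8 kb for Kat6b against 9.18 kb for Kat6a. Without division by length, the control means were 25.9 CPM for Kdm5d, 52.3 for Kdm5c and 12.4 for Kdm1b. Those of Kat6b and Kat6a were 55.1 and 63.5 CPM. Exon overlap also limits some levels. Of the Setd1a exon length, 51.8% is shared with a coding gene on the same strand. Genes on the opposite strand overlap 24.6% of the exon length of Kdm3b, 22.4% of Hdac4, 17.9% of Hdac11 and 14.6% of Suv39h1, and the sources used here do not give the strand setting of the counting.

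**Figure D2:**
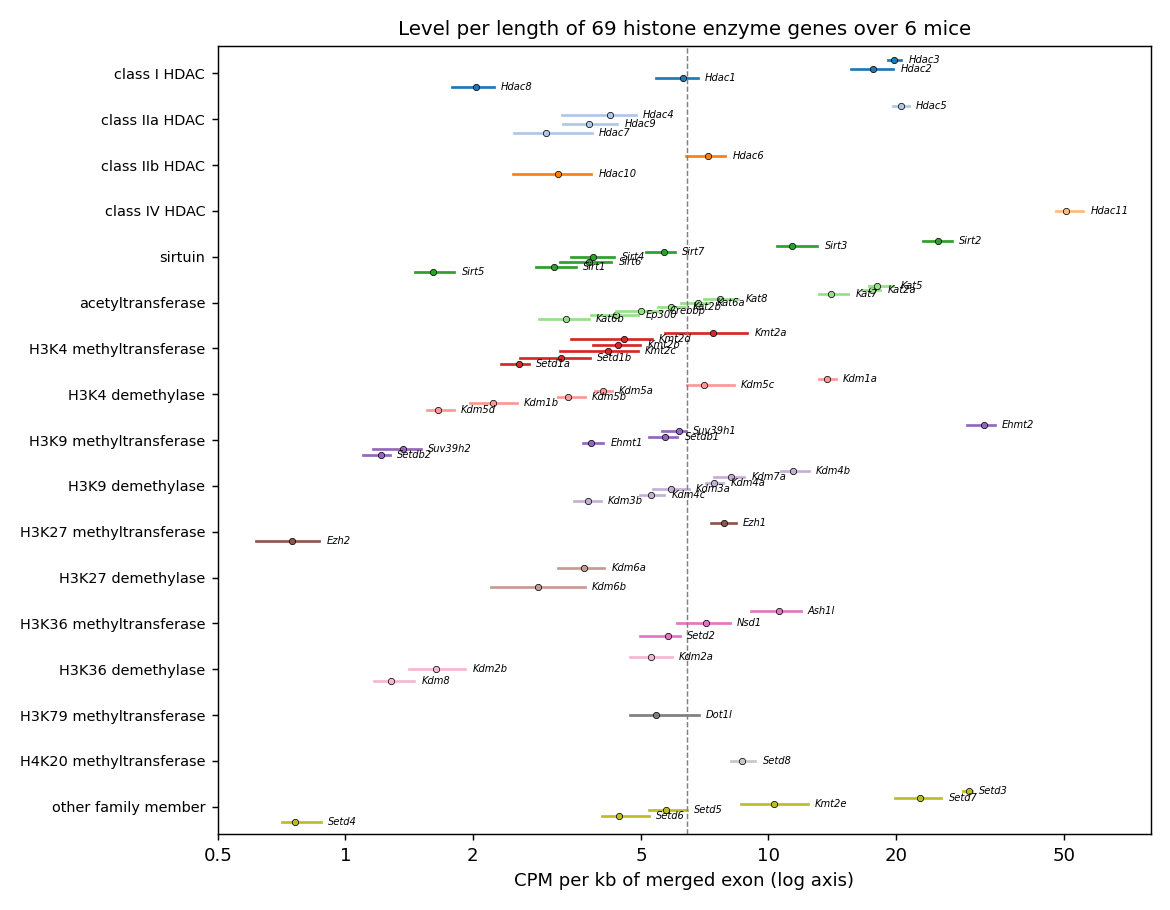
Level per length of the 69 genes by enzyme class, in CPM per kb of merged exon on a log axis; points are means and bars the range over the 6 mice, and the dashed line is the median of all genes with a length, 6.41. Hdac11, Ehmt2, Setd3 and Sirt2 lie highest, and Ezh2 and Setd4 lowest.

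Kmt2a, which encodes the H3K4 methyltransferase MLL1, had the log2 fold change farthest from 0 and the smallest p of the members. On GRCm38 the gene spans 44803355 to 44881296 of chromosome 9, on the minus strand. Its TMM-scaled values were 147, 149 and 114 CPM in controls 1 to 3 against 94.98, 122 and 112 CPM in ELS mice 1 to 3. Control mice 1 and 2 lay above all ELS mice, whereas control mouse 3 lay below ELS mouse 2, so the groups overlapped. The log2 fold change was -0.32 (standard error 0.109, 95% interval -0.55 to -0.081, adjusted p = 1.0) by edgeR's quasi-likelihood fit. Without control mouse 3 the log2 fold change was -0.43 and Kmt2a passed both thresholds with an adjusted p of 0.0497 in the same edgeR test. Over the other 16 alternative fits the adjusted p ran from 0.0902 to 1.0, and over all 17 the log2 fold change lay between -0.43 and -0.22. With both control mouse 3 and ELS mouse 1 left out, a choice made after seeing the data, the log2 fold change was -0.33 and the edgeR adjusted p 0.0409, in a fit that called 27 genes, or 0.204%.

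The enhancer enzymes of the same family also had ELS mouse 1 lowest. Kmt2d, an enhancer H3K4 monomethyltransferase, had 100.3, 106 and 86.4 CPM in controls 1 to 3 against 68.2, 91.6 and 94.1 CPM in ELS mice 1 to 3. Its paralog Kmt2c had 89.6, 99.7 and 81.5 CPM in the controls against 65.3, 83.6 and 88.5 CPM in ELS mice. In both genes ELS mouse 1 was lowest and control mouse 2 highest, and the groups overlapped. Their log2 fold changes were -0.20 and -0.19, with 95% intervals of -0.45 to 0.043 and -0.42 to 0.043 in edgeR's quasi-likelihood test. Without ELS mouse 1 both were at -0.072, and without control mouse 2 Kmt2c was at -0.11. Of the 6 genes of this class, 5 had values below 0, from -0.32 for Kmt2a to -0.079 for Kmt2b, and Setd1a was at 0.015. The class median was -0.16, and 0 of the 6 were called. Kmt2b was at -0.0056 without control mouse 1 and -0.19 without control mouse 3. The class median was -0.066 without ELS mouse 1, -0.078 without control mouse 2 and -0.27 without control mouse 3, and -0.15 without both ELS mouse 1 and control mouse 3. The summed level of the class was 29.7, 30.4 and 24.0 CPM per kb in controls 1 to 3 against 21.7, 26.4 and 25.9 CPM per kb in ELS mice 1 to 3, so control mouse 3 lay inside the ELS range. The opposing H3K4 demethylases summed to 34.2, 31.8 and 32.3 CPM per kb in the controls against 31.3, 31.5 and 31.5 CPM per kb in ELS mice.

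Kdm6a, an X-linked H3K27 demethylase also known as UTX, was the only one of the 5 members at an unadjusted p under 0.05 whose groups did not overlap. It lies on chromosome X from 18162575 to 18279936 (plus strand). It had 30.9, 26.7 and 28.0 CPM in controls 1 to 3 against 34.3, 33.5 and 31.0 CPM in ELS mice 1 to 3. The highest control mouse and the lowest ELS mouse were close to each other. Its log2 fold change was 0.21 (standard error 0.0818, 95% interval 0.030 to 0.38, adjusted p = 1.0) by that edgeR fit. Across the 17 alternative fits the value lay between 0.16 and 0.27. Kdm6b, the inducible paralog, had a log2 fold change of -0.12 with a 95% interval of -0.45 to 0.20. Its control mice spread from 15.4 to 25.6 CPM, a coefficient of variation of 24.7%, the largest of any member in either group. The H3K27 methyltransferases Ezh1 and Ezh2 had log2 fold changes of -0.010 and 0.043, with intervals of -0.16 to 0.14 and -0.30 to 0.39.

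Among the HDACs, Hdac9 and Hdac4 of class IIa had the log2 fold changes farthest from 0, in opposite directions. Hdac9 spans 34047580 to 34917095 of chromosome 12 and Hdac4 spans 91928779 to 92195699 of chromosome 1, both on the minus strand. Hdac9 had 56.9, 49.1 and 47.8 CPM in controls 1 to 3 against 55.3, 64.4 and 58.6 CPM in ELS mice 1 to 3. The groups overlapped through control mouse 1 and ELS mouse 1. Its log2 fold change was 0.21 (standard error 0.0849, 95% interval 0.028 to 0.40, adjusted p = 1.0) by edgeR's quasi-likelihood fit. Hdac4 had 71.0, 76.8 and 67.3 CPM in controls 1 to 3 against 51.5, 67.3 and 67.2 CPM in ELS mice 1 to 3. ELS mouse 1 was far below the other mice, and control mouse 3 and ELS mice 2 and 3 were nearly equal. Its log2 fold change was -0.21 (standard error 0.0994, adjusted p = 1.0) in that test, and it was -0.095 without ELS mouse 1. Hdac5 had 187, 188 and 179.7 CPM in the controls against 173, 177 and 177 CPM in ELS mice, a log2 fold change of -0.076 with an interval of -0.21 to 0.058. Hdac7 had a log2 fold change of -0.16, and its control mice spread from 16.9 to 25.8 CPM.

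The remaining acetyl erasers and writers had intervals around 0. In class I, Hdac1, Hdac2, Hdac3 and Hdac8 had log2 fold changes of 0.091, 0.11, -0.022 and 0.034. With single mice left out Hdac1 ran from 0.016 to 0.18 and Hdac2 from 0.059 to 0.17. Hdac3 was the most closely bounded of them, with an interval of -0.16 to 0.12. Hdac11 was at -0.013 and the 7 sirtuins ran from -0.053 for Sirt7 to 0.13 for Sirt6. The 9 acetyltransferases ran from -0.097 for Crebbp to 0.041 for Kat6b, and their summed level was 83.4 ± 0.933 CPM per kb in control and 82.0 ± 1.70 CPM per kb in ELS mice (SD, n = 3 each). Crebbp moved to -0.014 with the striatal covariate, to -0.029 when ELS mouse 1 was dropped and to -0.20 when control mouse 3 was. The paralogs Crebbp and Ep300 had intervals of -0.31 to 0.11 and -0.22 to 0.20.

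Kdm3a, an H3K9 demethylase, and Dot1l, the H3K79 methyltransferase, were the other members with lower values at an unadjusted p under 0.05. Kdm3a spans 71588972 to 71632990 of chromosome 6 on the minus strand, and Dot1l spans 80755206 to 80795461 of chromosome 10 on the plus strand. Kdm3a had 52.0, 49.0 and 53.4 CPM in controls 1 to 3 against 49.2, 43.8 and 44.0 CPM in ELS mice 1 to 3, with ELS mouse 1 just above control mouse 2. Its log2 fold change was -0.17 (standard error 0.0735, adjusted p = 1.0) by edgeR's quasi-likelihood fit. Dot1l had 47.9, 59.6 and 45.0 CPM in the controls against 41.0, 46.9 and 42.9 CPM in ELS mice, where control mouse 2 stood above the other 5 mice. Its log2 fold change was -0.22 (standard error 0.10, adjusted p = 1.0) in that test and -0.091 without control mouse 2. All 6 H3K9 demethylases had values below 0, as did 52.5% of all genes tested, from -0.17 for Kdm3a to -0.025 for Kdm4a. Their summed level was 44.6, 41.9 and 42.2 CPM per kb in the controls against 41.1, 40.9 and 41.2 CPM per kb in ELS mice. Here, as in the sums of the H3K4 demethylases, every ELS value was below every control value. Single genes did not overlap in 8.28% of all genes tested, and these sums were not tested.

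Groups that did not overlap were seen in 7 of the 69 members, or 10.1%, against 8.28% of all genes tested. Hdac4, Hdac5, Setd8 and Setdb1 were lower in every ELS mouse than in any control mouse, 5.8% of the members against 4.47% of all genes. Kdm6a, Suv39h1 and Kdm8 were higher, 4.35% against 3.81%. Some separations were narrow, as for Hdac4 with 67.31 CPM in control mouse 3 against 67.29 CPM in ELS mouse 2. For Kdm6a they were 30.93 CPM in control mouse 1 against 31.01 CPM in ELS mouse 3. A fit to only genes at 1 CPM or more in every mouse kept all 69 members and computed the TMM scaling anew. The count was then 5, or 7.25%, against 8.1%. Setd8, listed in current annotation as Kmt5a, encodes the H4K20 monomethyltransferase and had 49.4, 47.0 and 48.3 CPM in the controls against 43.4, 44.9 and 43.5 CPM in ELS mice. Its spread was small, and its log2 fold change was -0.14 (standard error 0.0656, 95% interval -0.28 to 0.0069, adjusted p = 1.0) in the edgeR test. Setdb1, an H3K9 methyltransferase that silences retroelements, had 40.0, 41.8 and 40.1 CPM in the controls against 35.9, 37.3 and 38.7 CPM in ELS mice, a log2 fold change of -0.12 with an interval of -0.27 to 0.028. Suv39h1, which trimethylates H3K9 in heterochromatin, and Kdm8 had log2 fold changes of 0.085 and 0.19, with intervals of -0.074 to 0.24 and -0.17 to 0.55. Suv39h1 was at 0.043 without control mouse 2.

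**Figure D3:**
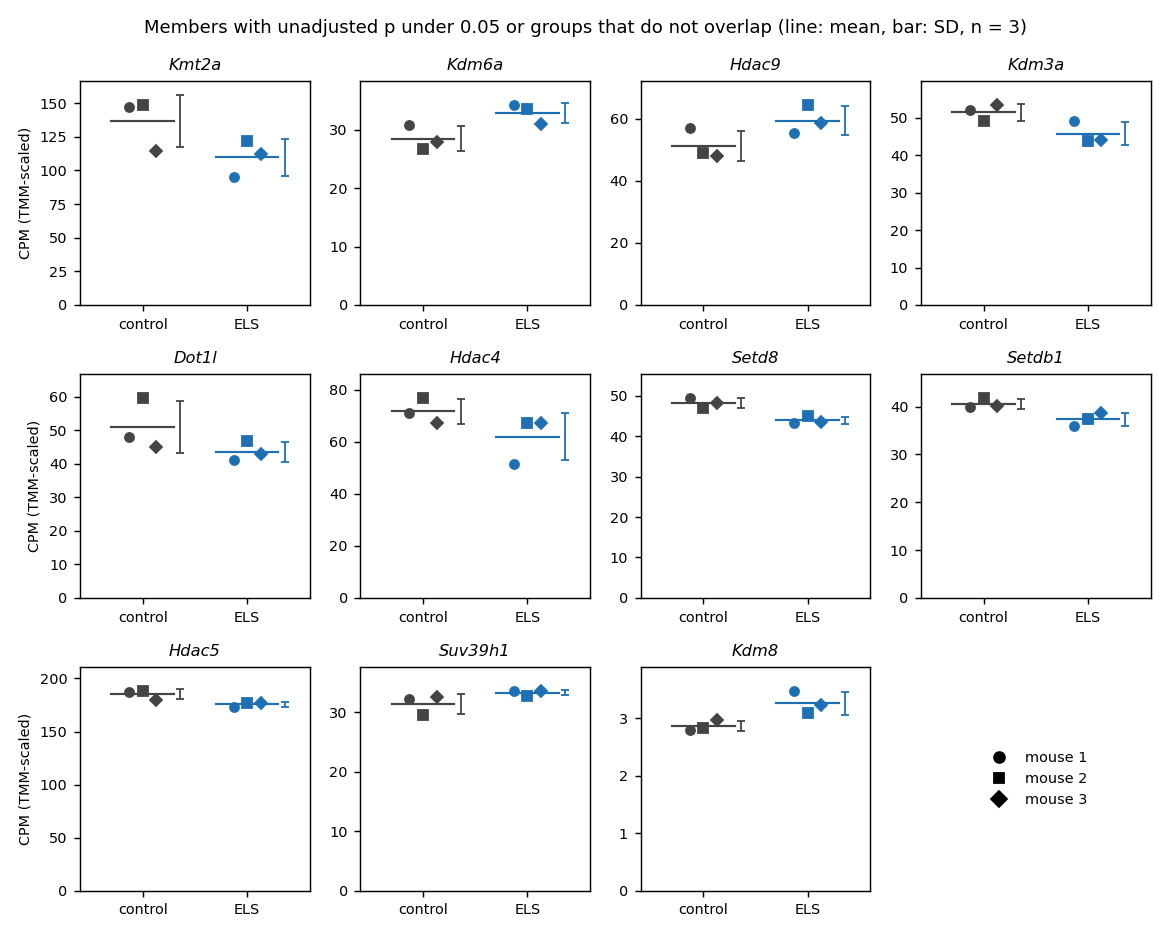
TMM-scaled CPM (vertical axis, from 0) of the 11 members with an unadjusted p under 0.05 or groups that do not overlap, for control and ELS mice; symbols mark mouse number, lines the means and bars the SD of 3 mice. In Kmt2a control mouse 3, at 114, lies among the ELS mice, and in Hdac4 ELS mouse 1, at 51.5, lies apart from the other 5.

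The members varied together within groups according to their merged exon length. The 69 genes were split at their median merged exon length of 6.755 kb, and each value was taken as log2(CPM + 1) minus the mean of its group. In control mouse 3, 31 of the 35 longer genes were below their group mean, with a median deviation of -0.14, while the 34 shorter genes had a median of 0.039. In ELS mouse 1, 29 of the 35 were below it, with medians of -0.093 for the longer and 0.014 for the shorter genes. Control mice 1 and 2 and ELS mouse 2 had the opposite pattern, with medians of 0.053, 0.084 and 0.076 for the longer genes, and ELS mouse 3 was near 0 in both sets. Across the 69 genes, Spearman's rho between length and deviation was 0.41, 0.36 and -0.57 in controls 1 to 3, and the ELS mice had -0.62, 0.63 and 0.15. These are descriptions across genes that share a library, and deviations within a group sum to 0. All 12757 genes with a length had a pattern of the same sign in all mice but ELS mouse 3, with rho from -0.47 in control mouse 3 to 0.35 in control mouse 1.

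The mice with lower values of long members also had more RNA of striatal marker genes. The 10 striatal markers measured of 12, such as Drd2, Adora2a and Penk, summed to 305, 335 and 572 CPM in controls 1 to 3 against 558, 371 and 398 CPM in ELS mice 1 to 3. Control mouse 3 and ELS mouse 1 were the highest of their groups. The 8 oligodendrocyte markers summed to 6334, 6494 and 8321 CPM in the controls against 7396, 6377 and 6961 CPM in ELS mice, with the same 2 mice highest. The 5 blood markers summed to 50.96, 59.7 and 85.1 CPM in the controls against 79.7, 52.6 and 64.3 CPM in ELS mice, again highest in these mice. The 8 neuronal markers were between 8371 and 8899 CPM in every mouse, the 8 astrocyte markers between 5814 and 6693 CPM, and the 7 microglial markers measured of 8 between 336 and 368 CPM. The 4 markers of oligodendrocyte precursors summed to 79.6 to 99.3 CPM and the 6 of endothelium and pericytes to 371 to 438 CPM with log2 fold changes from -0.0059 to 0.31 and a median of 0.073. The 2 choroid plexus markers measured of 6 summed to 2.62 to 2.65 CPM in the controls against 3.13 to 3.94 CPM in ELS mice. None of these lists had a called gene. The part of tissue makeup in the levels of the long members was not tested.

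**Figure D4:**
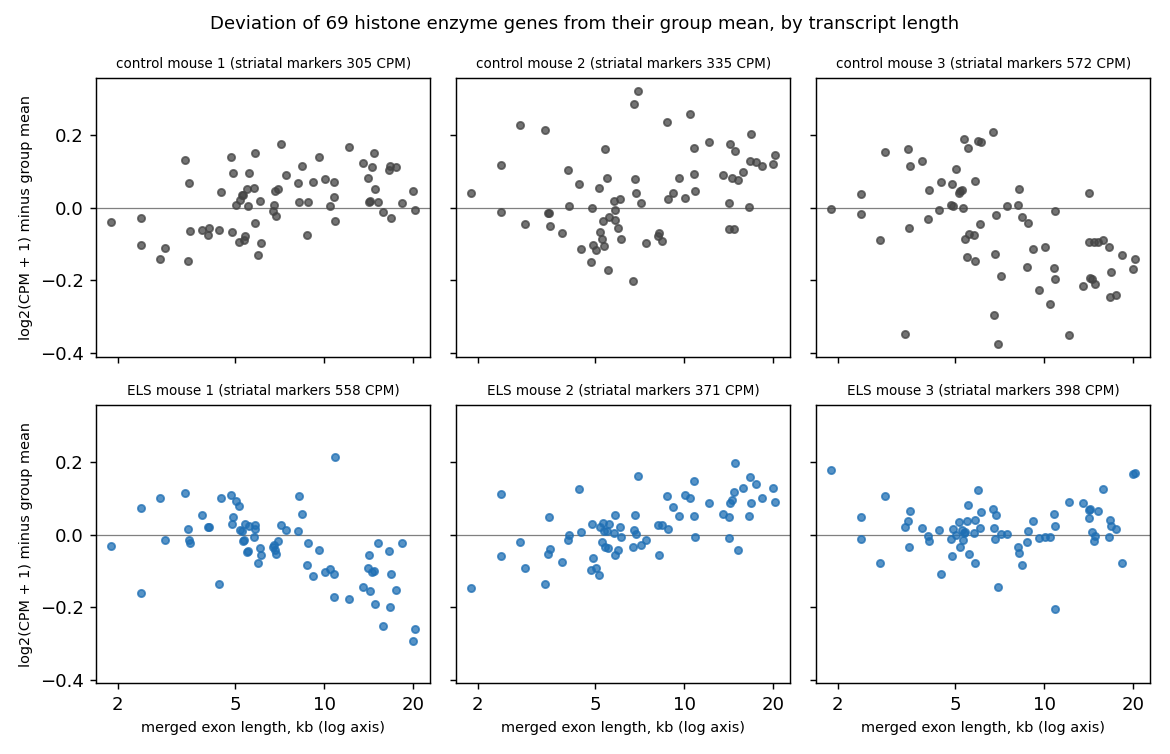
Deviation of each member's log2(CPM + 1) from the mean of its group (vertical axis) against merged exon length in kb (log axis), with 1 panel per mouse and the summed CPM of striatal markers in each title. Most of the 35 longer genes lie below 0 in control mouse 3 and ELS mouse 1, the mice with 572 and 558 CPM of striatal markers, and most lie above 0 in control mice 1 and 2 and ELS mouse 2.

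The count of small p-values moved most with control mouse 3. Without control mouse 3, 16 of the 69 members, or 23.2%, were at p below 0.05 before adjustment by edgeR, 15 lower and 1 higher in ELS mice, while the share over all genes tested was 11.7%, with 7.24% lower and 4.45% higher. The 15 were Kmt2a, Kmt2b, Kmt2c, Kmt2d, Setd1b, Setd5, Nsd1, Crebbp, Kdm2a, Kdm5c, Kdm6b, Hdac4, Hdac7, Hdac10 and Dot1l. They were listed after their values were seen. Kmt2a alone was called in that fit, beside 0.219% of all genes. With ELS mouse 1 left out as well, 13 of the 70 members then kept were at that p, against 8.74% of all genes, 12 of them lower, against 4.96%, and 1 higher, against 3.78%. Groups of the remaining mice did not overlap in 35 of the 70, against 39.2% of all genes. Without ELS mouse 1 alone, 2 members were at an unadjusted p under 0.05 by edgeR, Hdac9 and Kdm3a, or 2.86%, against 3.53% of all genes. Leaving out control mouse 1, control mouse 2, ELS mouse 2 or ELS mouse 3 gave 3, 2, 3 and 5, where the shares over all genes were 4.16%, 3.11%, 3.88% and 2.77%. With all 6 mice the longer members had a median log2 fold change of -0.076 and the shorter members one of -0.0061, where all genes split at the same length had medians of -0.022 and 0.0013. Spearman's rho between length and log2 fold change was -0.45 across the members and -0.12 across all genes with a length.

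The partners of these enzymes were not called either. Of 144 genes in lists of corepressor, COMPASS, PRC2 and acetyltransferase complexes, class IIa HDAC partners, other writers and erasers, and readers of the marks, 137 were tested. None was called in edgeR's quasi-likelihood test, and 2 had an unadjusted p under 0.05, against 4.23% of all genes. DESeq2 also gave 2, with 0 called. Without control mouse 3 the count was 19 of 137, where 11.7% of all genes were at this p, and it was 8 with ELS mouse 1 left out as well, where the share was 8.74%. None was called in either fit. Their median log2 fold change was -0.019. The 2 genes, named after their values were seen, were Uhrf2 and Prdm2. Uhrf2, a reader of methylated H3K9 and of modified cytosine, had 52.7, 47.3 and 45.7 CPM in the controls against 41.1, 38.1 and 44.1 CPM in ELS mice, a log2 fold change of -0.24 (adjusted p = 0.970 in that edgeR test) with groups that did not overlap. Prdm2, an H3K9 methyltransferase, was at -0.21 (adjusted p = 1.0 in the same edgeR test). Of the HDAC corepressor subunits, 15 of 29 had values below 0. COMPASS subunits, the partners of the Kmt2 enzymes, ran from -0.084 to 0.078, and PRC2 subunits from -0.13 to 0.051. The readers had 18 of 20 genes below 0, against 52.5% of all genes, with a median of -0.032.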

How the data were processed

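Libraries of PFC RNA came from 3 control and 3 ELS mice. Reads were trimmed with Trimmomatic, aligned to mm10 with STAR (the submitters' processing notes name version 2.7.1a) and counted per gene with HTSeq 0.9.1 from uniquely mapped reads by the authors, who deposited raw counts for 22000 gene symbols, neither normalized nor pooled. The annotation and the strand setting of the counting are not given in the sources used here. Columns of ELS mice are named SI for social isolation and were matched by that term and number.

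The tests used edgeR 4.0.16 under R 4.3.3. The filter kept a gene that reached 1 CPM throughout the control or the ELS group, TMM factors (0.992 to 1.02) were computed, and a quasi-likelihood model of condition alone was fitted to 13185 genes. The CPM thus come from the counts and are TMM-scaled. The F statistic gave the standard errors, Benjamini-Hochberg adjustment ran over all genes, and intervals are at 95%. Following the study's methods, a call took an adjusted p below 0.05 with a log2 fold change beyond 0.3 in size. Totals ran from 28405795 to 35241743 counts per mouse, with all ELS libraries above all control libraries. Mice of a group differed by more than sampling noise (chi-square per degree of freedom of at least 6.39). The p-values rest on the spread between 3 mice per group, which the quasi-likelihood fit moderates with the spread over all genes. Exon lengths, coordinates and overlaps were taken from GENCODE M21 (GRCm38, which UCSC calls mm10), with older symbols matched through RefSeq synonyms, which placed 96.8% of the genes tested. Setd8 is the older symbol of Kmt5a. Promoter windows are those of RefSeq.

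Genes named are members called, at an unadjusted p under 0.05 or with groups that do not overlap, the highest and lowest of a class, those nearest the 1 CPM limit, those with the widest spread, paralog pairs, and partners at an unadjusted p under 0.01, of which there were none. Uhrf2, Prdm2 and the markers were named outside this rule, after their values were seen. Members, classes and lists were chosen with earlier results of these data known. Alternatives were DESeq2 1.42.0, a likelihood ratio test, limma-voom (limma 3.58.1), a robust fit, other normalizations and filters, a replicate block, a striatal covariate, and leaving out each mouse. The test was checked on simulated counts.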

Additional observations from a re-analysis of the deposited data

How the results depend on the processing

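No member was called in 16 of the 17 alternative fits chosen at the outset, which called from 1 to 33 of all genes. Kmt2a was the 1 member called without control mouse 3, where 29 of all genes, or 0.219%, were called. Members called thus numbered 0 to 1 when single mice were dropped. Members at an unadjusted p under 0.05 numbered 5, but 3 with upper-quartile normalization (4.35%, against 4.07% of all genes) and 8 with the striatal covariate (11.6%, against 7.39%), with 2 to 16 when single mice were dropped (2.86%, against 3.53% of all genes, without ELS mouse 1 and 2.9%, against 3.11%, without control mouse 2, up to 23.2%, against 11.7%, without control mouse 3). Members whose groups did not overlap numbered 7, 5 to 7 with other tools, normalizations and filters, and 9 to 29 when single mice were dropped (13.04%, against 14.8% of all genes, without ELS mouse 3 to 42.0%, against 29.5%, without control mouse 3), where fewer mice make separation easier. Leaving out control mouse 3 and ELS mouse 1 together, chosen after seeing the data, gave 1 call (27 of all genes, 0.204%). In that fit 13 members were at an unadjusted p under 0.05, or 18.6%, against 8.74% of all genes. Groups did not overlap in 35, or 50%, against 39.2% of all genes. Partner genes called stayed at 0 throughout, and the median log2 fold change of the members ran from -0.053 to -0.014 with mice left out and was -0.012 with the striatal covariate. With the replicate block, 0 members were called and 6 were at an unadjusted p under 0.05, where 7 of all genes were called and 4.35% were at this p, and it changed no call of a member. Between same-numbered mice the deviations correlated at -0.16, 0.26 and -0.036, and not every mouse correlated best with its own number. Deviations within a group sum to 0, so these values cannot decide whether mice of a number share a litter or batch.

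The striatal covariate reversed the log2 fold changes of Ehmt2 to 0.036, Ep300 to 0.064, Kat6a to 0.0095 and Ezh2 to -0.0017, and upper-quartile normalization reversed Ehmt2 to 0.0040 and Ezh1 to 0.00090. With 1 mouse, or both of those mice, left out, values on both sides of 0 were seen for Ehmt2 (-0.073 to 0.035), Ep300 (-0.11 to 0.080), Ezh1 (-0.057 to 0.038), Ezh2 (-0.068 to 0.20), Hdac10 (-0.34 to 0.0075), Hdac7 (-0.30 to 0.0034), Kat6a (-0.095 to 0.014), Kat6b (-0.045 to 0.15), Kdm6b (-0.30 to 0.055) and Setd1a (-0.051 to 0.058). The cause was not tested. The part of counting error in the intervals was not separated from the spread between 3 mice per group. Kdm8, with 80 to 116 counts per mouse, had the widest interval of the members.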
